A study of Ovis aries with 2 samples.

Results

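The 9 genes described here encode transcription factors of the lateral plate, the outer sheet of the mesoderm, and of the allantois, the sac that grows out at the tail end of the embryo. They are TBX4 (ENSOARG00020011171), TBX5 (ENSOARG00020014733), TBX20 (ENSOARG00020004800), PITX1 (ENSOARG00020009307), FOXF1 (ENSOARG00020009818), HAND1 (ENSOARG00020019349), HAND2 (ENSOARG00020009532), GATA4 (ENSOARG00020007935) and GATA6 (ENSOARG00020025920). They were taken by symbol from the 26478 features of the files, and each symbol matched 1 feature. The question was whether cells with TBX4 can be separated from the territories of TBX5 and of GATA4.

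Single-cell RNA was measured in sheep embryos of a pair of breeds on day 16 after mating, with Ujumqin as the control group and Hulunbuir Short-tail as the experimental group. According to the study's methods, tissue outside the embryo was removed with forceps, and the sample records add that red cells were lysed before the droplet-based sequencing. The series record speaks of several animals in each group, but embryos were pooled and 1 library was deposited for each breed. No difference between the breeds therefore has a replicate check, and no test between the breeds was run.

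TBX4 and TBX5 are sister genes of the T-box family: in vertebrates TBX4 marks the hindlimb field and the allantois, and TBX5 marks the forelimb field and the heart. PITX1 acts above TBX4 in the hindlimb field, and FOXF1, HAND1 and HAND2 act in the lateral plate and in the mesoderm that lines the gut, the yolk sac and the allantois. GATA4 and GATA6 bind DNA together with TBX5, TBX20 and HAND proteins in the heart, and they also act in the yolk sac and the gut lining.

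The Ujumqin library held 212933364 unique molecular identifiers (UMIs, the counted RNA molecules) in 17059 barcodes, and the Hulunbuir library held 131385353 UMIs in 10709 barcodes. Barcodes were kept when 200 genes or more were detected and mitochondrial transcripts made up less than 10%, which left 14554 Ujumqin cells (median 9519 UMIs) and 9583 Hulunbuir cells (median 11879 UMIs). Of the barcode sequences, 61 occurred in both libraries and 50 were kept in both. Leaving these 50 out moved the log2 fold of none of the 9 genes between the libraries by more than 0.02. Doublets were scored but not removed. The libraries differed in their cells: erythroid-like clusters held 5006 Ujumqin cells (34.4%) and 0 Hulunbuir cells, so levels between the libraries are given outside these clusters. Outside them the median was 1771 UMIs in Ujumqin, far below the 11879 of Hulunbuir.

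Each library was clustered separately, and the 9 genes took no part in the clustering. Marker lists then gave clusters their -like names, by a rule set after the clusters were seen, and clusters that met no list kept a number only. Most of the RNA of the 9 genes lay in clusters led by fibrillar matrix genes such as LUM, DCN and COL1A1, called matrix mesenchyme-like. These clusters held 2653 cells in Ujumqin (18.2%) and 4360 cells in Hulunbuir (45.5%). The share of all TBX4 UMIs that lay in them was 92.6% in Ujumqin and 90.3% in Hulunbuir, and for GATA4 these shares were 84.7% and 92.0%. Among the 9 genes the lowest such shares were 84.7% in Ujumqin, for GATA4, and 70.7% in Hulunbuir, for PITX1.

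No cluster took the name of the allantois. Of the 10 markers listed for allantois mesenchyme, 8 were in the files, and 0 of these 8 were at 0 UMIs in the matrix mesenchyme-like cells of either library. Their summed level in these cells, in counts per 1000000 UMIs (CPM), was 254 in Ujumqin and 296 in Hulunbuir, with RSPO3 as the most abundant. HOXA11 and HOXA13, which pattern the hind end of the body and the allantois, stood at 23.7 and 5.32 CPM in the matrix mesenchyme-like cells of Ujumqin and at 67.5 and 20.2 in those of Hulunbuir. HOXA11 was not restricted to them: the endothelium-like cells of Hulunbuir had 91.3 CPM. These markers do not tell allantois from hind-end lateral plate in these cells, and the clusters are called by their leading genes.

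A level is the sum of a gene's UMIs in a group of cells in CPM of that group, with an exact Poisson interval at 95%, and a share of cells has an exact binomial (Clopper-Pearson) interval. The intervals cover counting error only. UMIs were counted at the 3′ end and not divided by gene length, so levels were compared within a gene and not from gene to gene.

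Among the T-box genes, TBX4 stood at 9.12 CPM (8.40 to 9.89) in the matrix mesenchyme-like cells of Ujumqin and at 21.4 (20.3 to 22.6) in those of Hulunbuir. TBX5 stood at 2.33 (1.98 to 2.74) and 4.10 (3.63 to 4.61) in the same cells. TBX20, a repressor and activator of heart genes that is also made in lateral plate, stood at 7.92 (7.25 to 8.63) and 20.02 (19.0 to 21.1). All of these T-box genes were thus detected in matrix mesenchyme, and each was higher there in Hulunbuir than in Ujumqin, as were 71.0% of the 10015 features compared.

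PITX1, the homeodomain factor of the hindlimb field, stood at 20.1 CPM in Ujumqin and 32.7 in Hulunbuir in matrix mesenchyme-like cells. FOXF1, a forkhead factor that hedgehog signals switch on in visceral mesoderm, stood at 6.74 and 12.9. HAND1, a helix-loop-helix factor of extraembryonic mesoderm and the left ventricle, stood at 1.69 and 5.49. HAND2, its sister gene in the limb buds, the heart and the lateral plate, was detected in the largest share of these cells, 50.3% in Ujumqin and 63.2% in Hulunbuir. Its levels were 73.2 CPM (71.2 to 75.3) and 101 (98.7 to 103.6). The zinc finger factor GATA4 stood at 4.64 (4.13 to 5.19) and 6.53 (5.93 to 7.17), and its relative GATA6 at 21.2 and 36.1. Hulunbuir was the higher library for each of these 6 genes as well, beside the same 71.0% of features.

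Free RNA gave a low background. TBX4 had a UMI in 17.6% of the matrix mesenchyme-like cells of Ujumqin (16.1 to 19.1, median 22314 UMIs) against 0.0599% of its erythroid-like cells (3 cells, median 20549.5 UMIs). TBX5 had a UMI in 5.16% of the former and in 0 of the 5006 erythroid-like cells. Any of the 9 genes had a UMI in 68.6% of the matrix mesenchyme-like and 1.60% of the erythroid-like cells of Ujumqin. With no erythroid-like cells in Hulunbuir, its 248 neural tube-like cells (median 9086 UMIs) served instead. TBX4 had a UMI in 0.403% of them (1 cell) against 24.6% of the matrix mesenchyme-like cells (median 15677 UMIs). For any of the 9 genes these shares were 4.03% and 81.0%, so detection in matrix mesenchyme stood far above this background in both libraries.

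**Figure D1:**
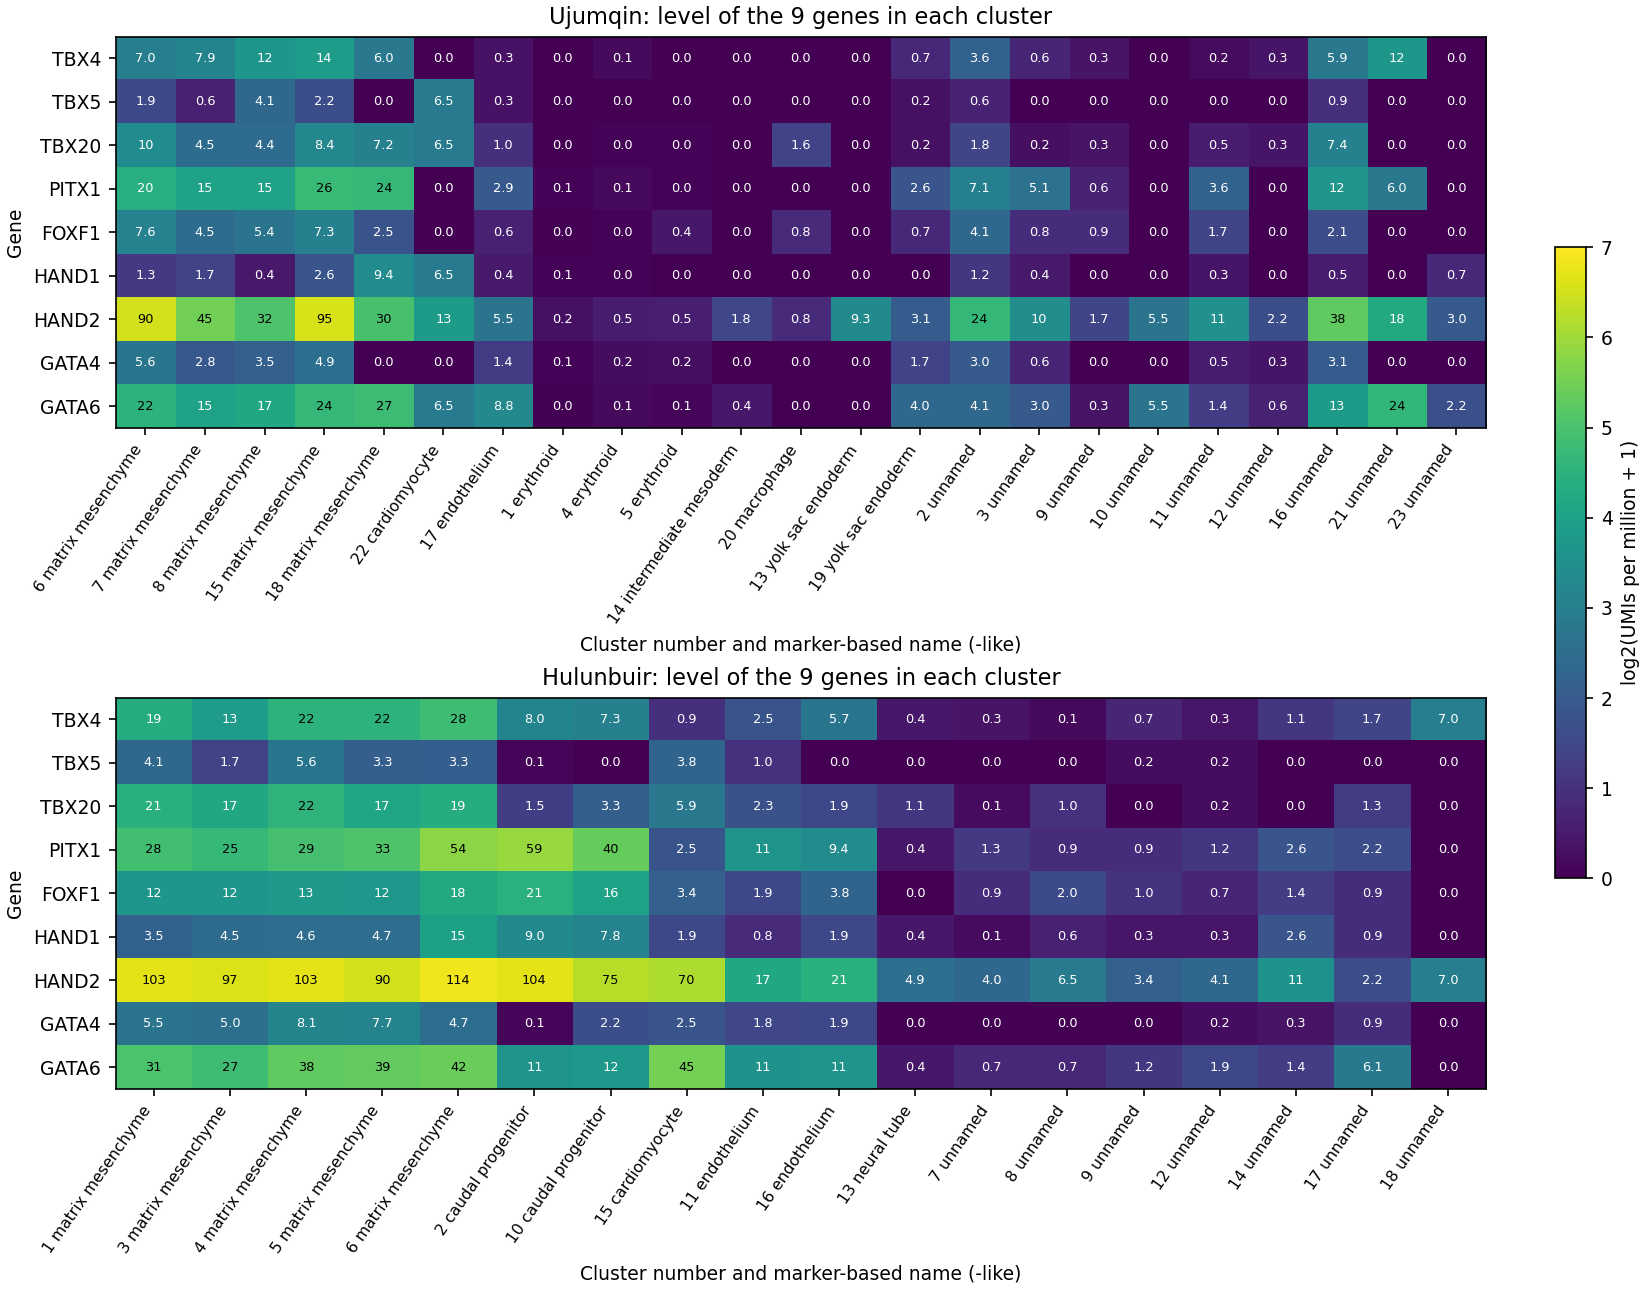
Levels of the 9 genes (rows of each panel) in each cluster (columns, with cluster number and marker-based name) of Ujumqin (top) and Hulunbuir (bottom). Colours show log2 of CPM with 1 added, and the printed numbers are CPM. Among clusters with more than 3 UMIs of a gene, matrix mesenchyme-like columns hold the highest level of all 9 genes in Ujumqin, and of 6 of the 9 in Hulunbuir, and the 6.49 of TBX5 in Ujumqin cluster 22 is 1 UMI.

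The order of the clusters differed between the genes. In Ujumqin, the cluster with the highest level was matrix mesenchyme-like for 9 of 9 genes, after clusters with 3 or fewer UMIs of a gene were left out of its order. TBX4 was highest in cluster 15 (13.6 CPM), which did not differ beyond its interval from clusters 8 (11.9) and 7 (7.91), and was followed by clusters 6 (6.97) and 18 (5.97). TBX5 was highest in cluster 8 (4.12), led by the smooth muscle gene ACTA2 with EDNRB and MGP, and stood apart there from cluster 15 (2.21), next in order. GATA4 was highest in cluster 6 (5.59), led by REG4, and clusters 15 (4.92), 2 and 7 did not differ from it beyond their intervals. TBX4, TBX5 and GATA4 thus peaked in different matrix mesenchyme-like clusters of Ujumqin, and of these peaks that of TBX5 alone stood apart from the other clusters with more than 3 UMIs of the gene.

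In Hulunbuir, 6 of 9 genes were highest in a matrix mesenchyme-like cluster. TBX4 was highest in cluster 6 (27.6 CPM), which stood apart from cluster 4 (22.2), next in order, and from the others with more than 3 UMIs. TBX5 was highest in cluster 4 (5.56) and was there apart from cluster 1 (4.07) but not from the cardiomyocyte-like cluster 15 (3.75). GATA4 was highest in cluster 4 as well (8.09), not apart from clusters 5 (7.68) and 3 (5.04). PITX1 and FOXF1 were highest in cluster 2, a caudal progenitor-like cluster (59.2 and 21.0), and GATA6 was highest in the cardiomyocyte-like cluster (45.3). The peak of PITX1 did not differ from that in cluster 6 (53.9), that of FOXF1 not from clusters 6 (17.9) and 10 (15.6), and that of GATA6 not from clusters 6, 5 and 4. HAND1 stood apart in cluster 6 (14.9, against 8.99 in cluster 2), TBX20 peaked in cluster 4 (22.5) without standing apart, and HAND2 peaked in cluster 6 (114), apart from cluster 2 (104) but not from cluster 3 (97.5).

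A territory with TBX4 and almost no TBX5 or GATA4 was found in cluster 2 of Hulunbuir. Clusters 2 and 10 of that library were caudal progenitor-like, 1492 cells led by MYO3A, CDX2 and CDX4. CDX genes set hind-end identity in the growth zone of the tail. These cells held 101 UMIs of TBX4 (7.89 CPM, 6.43 to 9.59), 1 UMI of TBX5 and 5 UMIs of GATA4. Against the matrix mesenchyme-like cells of the same library, the log2 ratio was -1.44 (-1.75 to -1.15) for TBX4, -5.71 (-11.02 to -3.22) for TBX5 and -4.06 (-5.69 to -2.83) for GATA4. TBX4 was therefore lower than in matrix mesenchyme, but TBX5 and GATA4 were lower by far more, with intervals that did not reach that of TBX4. For TBX5 and GATA4 alike this rested on cluster 2, with 88 UMIs of TBX4 and 1 each of TBX5 and GATA4. The 512 cells of cluster 10 held 13 UMIs of TBX4, 0 of TBX5 and 4 of GATA4, too few to separate TBX4 from either gene there.

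The other genes split in the same cells. PITX1 stood at 56.5 CPM against 32.7 in matrix mesenchyme (log2 ratio 0.79, 0.66 to 0.91) and was itself among the 10 leading genes of cluster 2. FOXF1 at 20.2 (log2 ratio 0.65) and HAND1 at 8.83 (log2 ratio 0.68) were also higher there than in matrix mesenchyme. HAND2 was level between them, at 99.9 against 101 (log2 ratio -0.02, -0.10 to 0.07). TBX20 stood at 1.72 (log2 ratio -3.54) and GATA6 at 11.4 (log2 ratio -1.66). PITX1, FOXF1 and HAND1 were thus higher in the hind-end cells, HAND2 was level, and TBX4, TBX5, TBX20, GATA4 and GATA6 were higher in matrix mesenchyme.

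Not all clusters with caudal progenitor markers had PITX1, TBX4 and HAND2 at such levels. Clusters 7 and 8 of Hulunbuir, unnamed under the rule, had more caudal progenitor markers (6 and 5) than cluster 2 (3), FGF8 among them, and were chosen for this comparison after their values were seen. PITX1 stood at 1.30 CPM (0.593 to 2.46) in cluster 7 and at 0.851 (0.312 to 1.85) in cluster 8. TBX4 had 2 UMIs in the 573 cells of cluster 7 and 1 UMI in the 562 cells of cluster 8, and HAND2 stood at 4.04 and 6.52. No Ujumqin cluster was caudal progenitor-like, so the same comparison could not be made in that breed.

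The opposite loss, of TBX4 and not of TBX5, was found in the cardiomyocyte-like cluster 15 of Hulunbuir taken as a whole. Its 231 cells had 8 cardiomyocyte markers beside 7 matrix mesenchyme markers, and the RNA of MYL7 and TNNT2 lay mostly in 45 cells. TBX4 had 3 UMIs in the cluster (0.938 CPM, 0.193 to 2.74) and TBX5 had 12 (3.75, 1.94 to 6.55). Against matrix mesenchyme, the log2 ratio was -4.51 (-6.79 to -2.96) for TBX4 and -0.13 (-1.10 to 0.70) for TBX5, which did not differ at this depth. GATA6 at 45.3 was slightly higher than in matrix mesenchyme (log2 ratio 0.33, 0.08 to 0.57), and HAND2 at 69.7 was lower (log2 ratio -0.54). GATA4 stood at 2.50 (log2 ratio -1.38, -2.60 to -0.39) and PITX1 at 2.50 (log2 ratio -3.71). TBX20 (-1.75), FOXF1 (-1.91) and HAND1 (-1.55) were lower as well. As a whole, cluster 15 therefore kept GATA6 and most HAND2, and 6 genes were lower in it, TBX4 and PITX1 most. TBX5 did not differ over the cluster, but 7 of its 12 UMIs lay in 4 cells.

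Cluster 15 held few cells with much sarcomere RNA. Its 45 cells with at least 10 sarcomere UMIs had MYL7 at 1220 CPM and TNNT2 at 628. The other 186 cells had 4.12 and 8.66. Matrix genes went the other way, with COL1A1 at 109 in the 45 cells against 244, and POSTN at 131 against 548. The name cardiomyocyte-like thus rests on the 45 cells, and most cells of the cluster had little sarcomere RNA. TBX5 stood at 9.06 CPM (7 UMIs in 4 cells, 3.64 to 18.7) in the 45 cells and at 2.06 (5 UMIs, 0.669 to 4.81) in the other 186. These intervals overlapped. GATA6 stood at 45.3 in both groups, and TBX4 had 1 and 2 UMIs in them. In Ujumqin, the cardiomyocyte-like cluster 22 held 54 cells with a median of 1228 UMIs and 0 to 2 UMIs of each of the 9 genes. At 0 UMIs of TBX4, 3 counts would have been a level of 19.5 there, so that TBX4 could not be called absent at this depth.

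**Figure D2:**
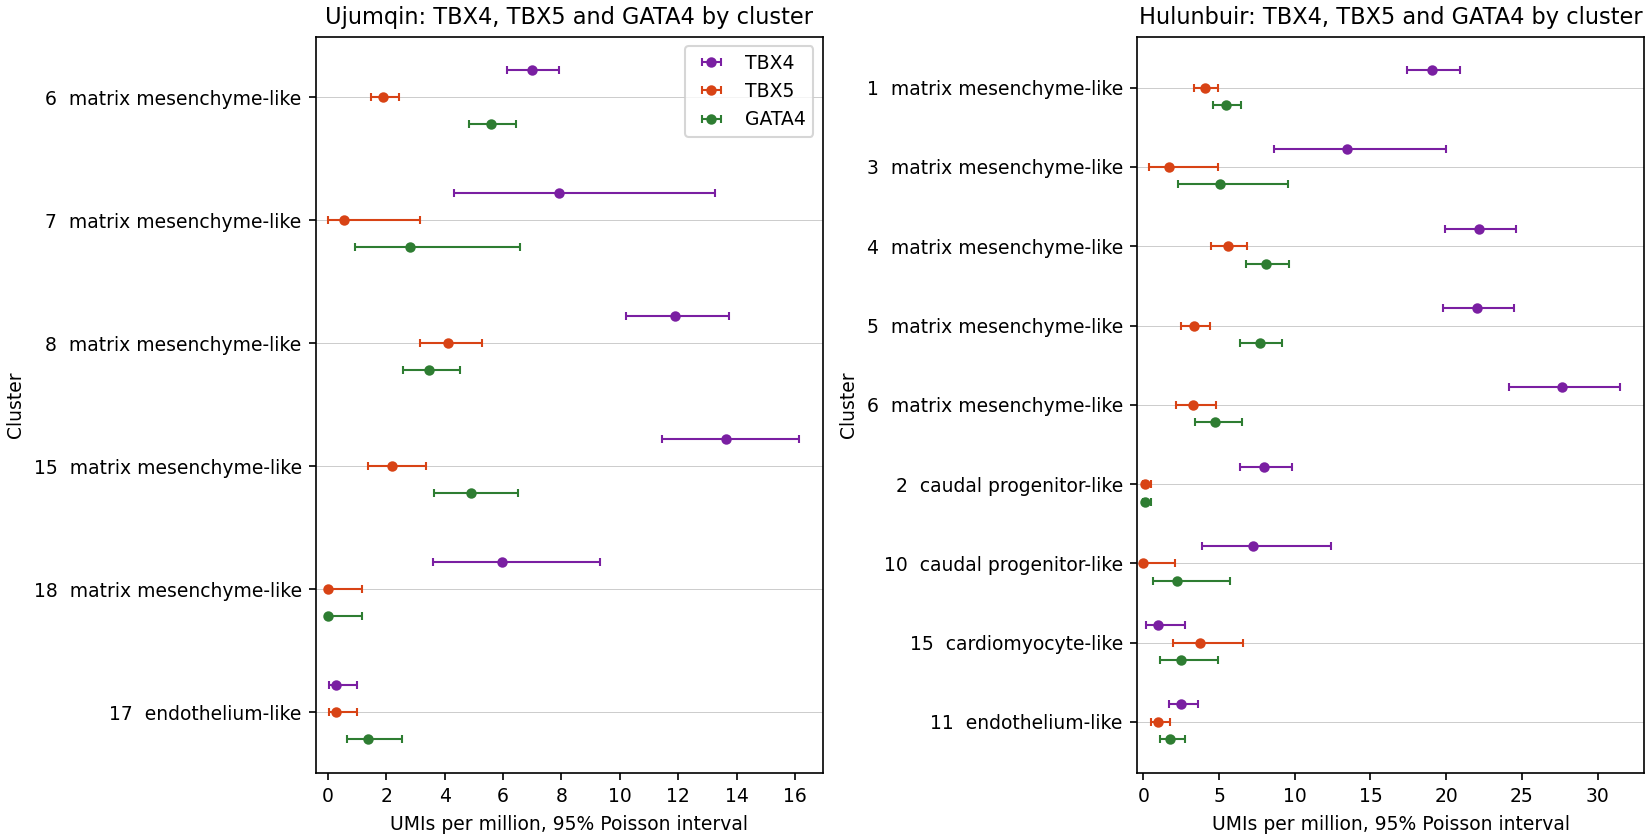
Levels of TBX4 (purple), TBX5 (orange) and GATA4 (green) in CPM in the matrix mesenchyme-like clusters and in a selection of the other named clusters, for Ujumqin (left) and Hulunbuir (right). Points are levels and bars are 95% Poisson intervals: TBX4 stood at 7.99 in Hulunbuir cluster 2, where TBX5 and GATA4 stood at 0.0908 each, and in cluster 15 TBX4 stood at 0.938 against 21.4 in matrix mesenchyme as a whole.

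The share of TBX4 among the UMIs of TBX4 and TBX5 puts these territories on a single scale. In matrix mesenchyme it was 79.6% in Ujumqin (590 and 151 UMIs, 76.5 to 82.5) and 84.0% in Hulunbuir (1429 and 273 UMIs, 82.1 to 85.7). In Hulunbuir it was 99.0% in the caudal progenitor-like cells (94.7 to 100.0) and 73.8% in the endothelium-like cells (58.0 to 86.1). In the cardiomyocyte-like cluster 15 of Hulunbuir as a whole it was 3 of 15 UMIs (4.33 to 48.1%). The shares of the caudal progenitor-like cells and of cluster 15 lay on opposite sides of the matrix mesenchyme share, each beyond the intervals. The share of the caudal progenitor-like cells rested on cluster 2, as cluster 10 held few of these UMIs.

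The share of TBX4 among the UMIs of TBX4 and GATA4 was 66.3% in the matrix mesenchyme of Ujumqin (63.1 to 69.4) and 76.7% in that of Hulunbuir (74.7 to 78.6). In the caudal progenitor-like cells it was 95.3% (89.3 to 98.5), from 98.9% in cluster 2 (93.9 to 100.0) and 76.5% in cluster 10 (13 and 4 UMIs, 50.1 to 93.2), which did not differ from matrix mesenchyme. In the cardiomyocyte-like cells it was 27.3% (3 and 8 UMIs, 6.02 to 61.0), and in the endothelium-like cells of Hulunbuir 59.6% (45.1 to 73.0), below matrix mesenchyme beyond the intervals, which the share against TBX5 was not. GATA4 was therefore separated from TBX4 in cluster 2 and in the cardiomyocyte-like cells, where TBX5 was too, and in the endothelium of Hulunbuir, with 31 UMIs of TBX4 and 21 of GATA4, the share was only moderately lower. The endothelium-like cells of Ujumqin held 2 UMIs of TBX4, 2 of TBX5 and 10 of GATA4, with GATA6 at 8.85 CPM, and in those of Hulunbuir GATA6 stood at 11.2 and PITX1 at 11.3.

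Matrix mesenchyme was not uniform. In Ujumqin, cluster 18 (99 cells), led by PLAC9, DCN and PLAC8, held 19 UMIs of TBX4 (5.97 CPM) and 0 UMIs of TBX5 and of GATA4. With 3 counts as the limit for 0, TBX5 was at least 2.60-fold lower and GATA4 at least 5.17-fold lower than in the other matrix mesenchyme-like clusters of Ujumqin. TBX4 itself was not lower beyond its interval (log2 ratio -0.64, -1.38 to 0.02). HAND1 was 7.34-fold higher there (9.43 CPM against 1.28), HAND2 stood at 30.2 against 75.5 (log2 ratio -1.32), and FOXF1 at 2.51 against 6.96 (log2 ratio -1.47). Cluster 18 was thus the site of the highest HAND1 in Ujumqin, with TBX4 and without detected TBX5 or GATA4.

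Cluster 8 of Ujumqin, with ACTA2 as its leading gene, showed another mixture when set against cluster 6, the largest matrix mesenchyme-like cluster. TBX5 stood at 4.12 against 1.90 CPM (log2 ratio 1.11, 0.59 to 1.64) and TBX4 at 11.9 against 6.97 (log2 ratio 0.77, 0.48 to 1.05). The other genes were lower in cluster 8: HAND1 by a log2 ratio of -1.67, HAND2 by -1.48, TBX20 by -1.10, GATA4 by -0.70, FOXF1 by -0.49, PITX1 by -0.41 and GATA6 by -0.37. In this comparison TBX4 and TBX5 were both higher and the other 7 genes lower.

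In Hulunbuir, cluster 6, where PITX1 was among the 10 leading genes beside DCN, A2M and FBP1, stood out from the other matrix mesenchyme-like clusters by HAND1 (14.9 against 4.18 CPM, log2 ratio 1.83). PITX1 (log2 ratio 0.86), FOXF1 (0.55), TBX4 (0.43, 0.21 to 0.63), GATA6 (0.26, 0.09 to 0.43) and HAND2 (0.19, 0.09 to 0.29) were also higher in it. GATA4 was lower (log2 ratio -0.51, -1.03 to -0.04), and TBX5 did not differ beyond its interval (log2 ratio -0.36, -0.99 to 0.22). In each breed, then, the matrix mesenchyme-like cluster with the highest HAND1 had less GATA4 than the other clusters of its class. HAND2 and FOXF1, however, were lower in Ujumqin cluster 18 and higher in Hulunbuir cluster 6. The correspondence of these clusters was not tested.

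Across clusters, the levels of most pairs of the 9 genes rose together, and the least correlated single pair in Ujumqin was HAND1 with GATA4. Over the 36 pairs of genes, the median Pearson r of log2 levels was 0.68 across the 23 clusters of Ujumqin and 0.82 across the 18 clusters of Hulunbuir, beside medians of 0.41 and 0.048 over all pairs of 2021 other genes. Those other genes had at least 50 CPM in some cluster of each library, a level that most of the 9 genes did not reach. The clusters of a library share its depth and its free RNA, so these values describe and do not test. In Ujumqin, r ran from 0.06 (HAND1 with GATA4) to 0.92 (PITX1 with HAND2). In Hulunbuir, r ran from 0.42 (TBX5 with HAND1) to 0.98 (PITX1 with FOXF1). TBX4 and TBX5 had an r of 0.36 in Ujumqin and 0.72 in Hulunbuir, and TBX4 and GATA4 had 0.69 and 0.86. The low value of TBX4 and TBX5 in Ujumqin rested on the cardiomyocyte-like cluster, with its 1 UMI of TBX5. Without the cardiomyocyte-like cluster of each library, left out after the values were seen, it was 0.716, and in Hulunbuir it was 0.858. HAND1 was in the least correlated pair of each library with or without these clusters.

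Between the libraries, all 9 genes had higher levels in Hulunbuir, as did 75.6% of the 11687 features compared. Outside erythroid-like clusters, TBX4 stood at 5.96 CPM (5.51 to 6.45) in Ujumqin and 12.3 (11.7 to 12.9) in Hulunbuir. TBX5 stood at 1.51 and 2.32, and GATA4 at 3.22 (2.89 to 3.58) and 3.68 (3.35 to 4.02). The Poisson intervals of GATA4 overlapped, and those of the other 8 genes did not, beside 57.8% of features with intervals apart and higher in Hulunbuir.

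The log2 fold, Hulunbuir over Ujumqin, was 1.04 for TBX4 (0.91 to 1.18), 0.63 for TBX5 (0.35 to 0.91) and 0.19 for GATA4 (-0.01 to 0.40). It was highest for HAND1, at 1.81 (1.52 to 2.10), and was 1.06 for TBX20, 1.04 for FOXF1, 0.82 for PITX1, 0.62 for GATA6 and 0.47 for HAND2. Of the 9 genes, 4 were at least 2-fold higher in Hulunbuir, beside 17.4% of the 11687 features with at least 50 UMIs, and 0 were at least 2-fold lower, beside 5.05%. The median fold of all features was 0.38, and GATA4 was below it. HAND1 was exceeded or equalled by 4.55% of features and TBX4 by 16.0%.

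Folds were also taken within matrix mesenchyme-like clusters, which were clustered apart in each library and need not hold the same cells. The part of cell composition in the folds was not tested. Within matrix mesenchyme-like clusters, a comparison chosen after seeing the data, 3 of 9 genes (TBX4, TBX20 and HAND1) were at least 2-fold higher in Hulunbuir, beside 12.7% of 10015 features, and 0 were at least 2-fold lower, beside 4.28%. The log2 fold there was 1.23 for TBX4 (1.09 to 1.37), 1.34 for TBX20, 1.70 for HAND1, 0.81 for TBX5 and 0.49 for GATA4 (0.28 to 0.71), against a median of 0.29 over all features. The higher TBX4 of Hulunbuir was therefore also seen within this class.

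The call depends on the scaling and on the cells used. With all kept cells, erythroid-like ones included, 9 of 9 genes were at least 2-fold higher, but so were 44.1% of 11930 features (4.44% were lower), and the median fold of all features was 0.51 higher on the log2 scale. With the mean of the cells' own values in place of sums, 8 of 9 genes passed beside 30.7% of features, and the median was 0.26 higher. With the highest doublet scores removed, 2 of 9 genes passed beside 15.2% of features. TBX4 stood at a log2 fold of 0.91 then, just under 2-fold, and GATA4 at -0.034.

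**Figure D3:**
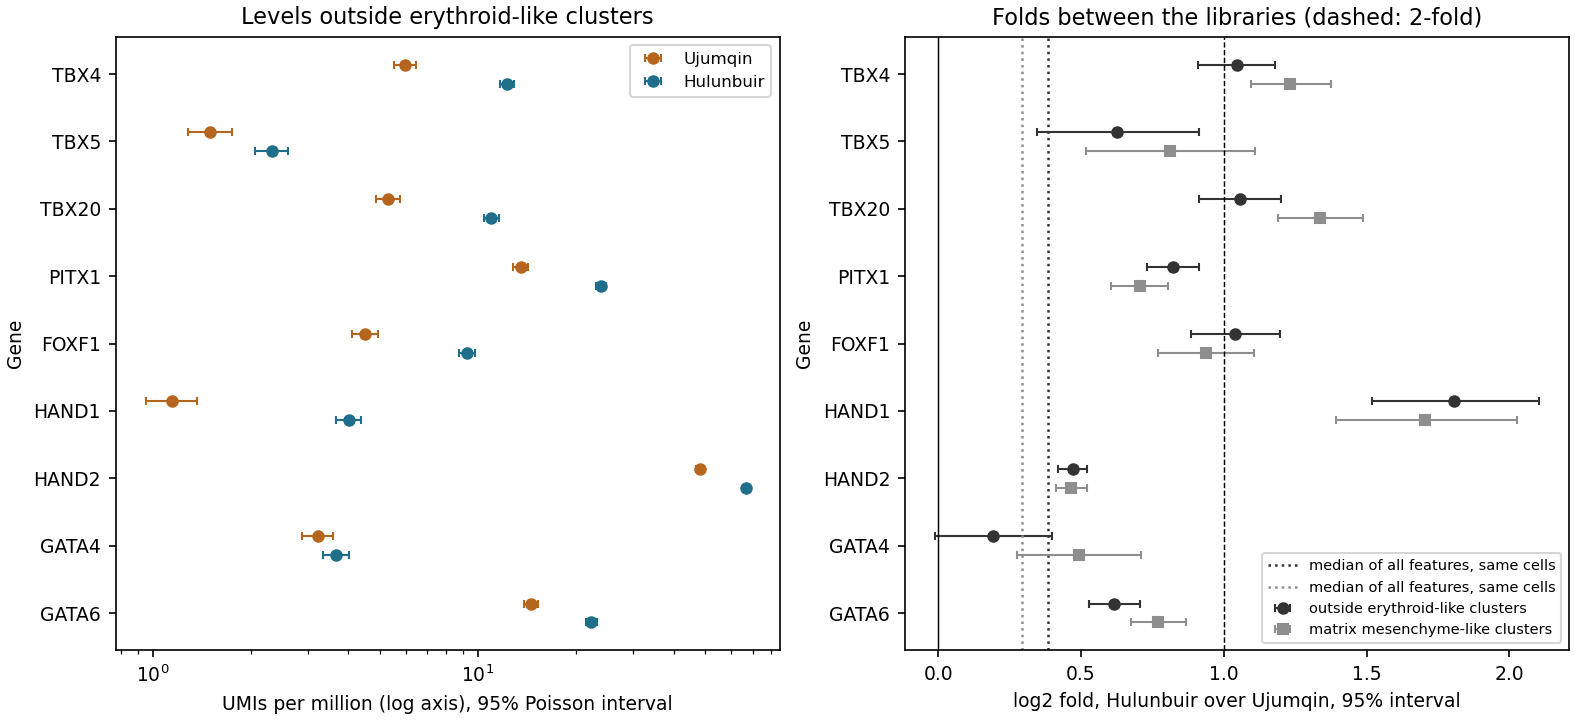
Left: levels of the 9 genes outside erythroid-like clusters in CPM on a log axis, with 95% Poisson intervals, in Ujumqin (orange) and Hulunbuir (blue). Right: log2 fold of Hulunbuir over Ujumqin with its 95% interval outside erythroid-like clusters (black circles) and in matrix mesenchyme-like clusters (grey squares), with dotted lines at the medians of all features (0.38 and 0.29): HAND1 lies highest (1.81) and GATA4 lowest (0.19) outside erythroid-like clusters.

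Co-detection asks whether the same cells hold a pair of these factors. Deep cells show every pair more often, so cells were thinned to equal depth. At 1000 UMIs per cell, 28 Ujumqin cells and 86 Hulunbuir cells had a UMI of TBX4, and 0 of either also had a UMI of TBX5. With 3 counts as the limit for 0, as for levels, these zeros allow shares of up to 10.7% and 3.49%, and GATA4 was found in 0 of the 28 and in 1 of the 86. Of the 72 ordered pairs of the 9 genes, 2 in Ujumqin and 4 in Hulunbuir were found together more often than in cells without the first gene, with intervals that did not overlap, beside 3.13% and 1.31% of pairs with other features. The 2 in Ujumqin were TBX20 and HAND1 in both orders and rested on 1 cell. Those in Hulunbuir were PITX1 and HAND2 in both orders (29 of 221 PITX1 cells with HAND2, 13.1% against 6.04%), and HAND2 in FOXF1 cells (11 of 84) and in HAND1 cells (8 of 48). Each of the 4 thus involved HAND2, and for TBX4 with TBX5 or GATA4 this depth gave too few cells to tell.

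At 10000 UMIs per cell, a depth chosen after seeing the data that left out 7339 of 14554 cells in Ujumqin and 3976 of 9583 in Hulunbuir, TBX5 was detected in 5.41% of the 573 TBX4 cells of Hulunbuir (31 cells, 3.71 to 7.59) and in 2.01% of cells without TBX4 (1.64 to 2.43). In Ujumqin these shares were 1.79% (3 of 168 cells, 0.370 to 5.13) and 0.667%, with overlapping intervals. GATA4 was detected in 6.81% of the TBX4 cells of Hulunbuir (4.88 to 9.19) against 3.08% of the others, and in 2.38% against 1.23% in Ujumqin, again with overlapping intervals there. HAND2 was detected in 40.5% of the TBX4 cells of Ujumqin against 10.96% of the others, and in 62.0% against 36.8% in Hulunbuir. At this depth 51 of 72 ordered pairs in Ujumqin and 56 of 72 in Hulunbuir were found together more often, with intervals that did not overlap, and 0 less often. Pairs of these 9 genes with all other features as well detected were found more often in 39.1% of cases in Ujumqin and 9.28% in Hulunbuir. They were found less often in 2.27% and 6.43%. Outside the erythroid-like clusters of Ujumqin, 16 of 72 pairs were found together more often, beside 4.43%. The Ujumqin count over all kept cells thus depended on whether erythroid-like cells were included.

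Thinning is a random draw, and 20 further draws were made after the values were seen. The share of TBX4 cells with TBX5 in Hulunbuir ran from 2.93% to 5.12% over these draws, all below the 5.41% above, and its interval was clear of that of the other cells in 9 of the 20. In Ujumqin it ran from 0.625% to 4.58% and was clear in 10. GATA4 was clear in 16 draws in Hulunbuir and 3 in Ujumqin, and PITX1 and HAND2 were clear in all 20 in each library. Co-detection of TBX4 with PITX1 and HAND2 was therefore steady over all kept cells, and that with TBX5 depended on the draw. In 0 of the draws did TBX4 cells have less TBX5 or GATA4 than the others beyond the intervals.

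Within matrix mesenchyme little of this gain was left. Among matrix mesenchyme-like cells at 10000 UMIs (874 of 2653 left out in Ujumqin and 1403 of 4360 in Hulunbuir), TBX5 was detected in 3.36% of TBX4 cells against 2.45% of the others in Ujumqin, and in 4.07% (2.57 to 6.09) against 3.77% (3.04 to 4.60) in Hulunbuir. GATA4 was detected in 4.03% against 4.85% in Ujumqin, and in 5.55% (3.77 to 7.82) against 5.67% (4.78 to 6.67) in Hulunbuir. For PITX1, which acts above TBX4 in the hindlimb, the shares were 16.1% against 16.99% and 28.3% against 27.2%. Of the 72 ordered pairs, 0 in Ujumqin and 2 in Hulunbuir (FOXF1 and HAND2, in both orders) still stood above, and 0 stood below. The other features stood above in 1.07% of pairs in Ujumqin and 1.27% in Hulunbuir, and below in 0.575% and 0.532%. Over the 20 further draws, TBX5 and GATA4 were clear in 0 in either library, PITX1 in 1 in Ujumqin, and HAND2 above in 4 in Hulunbuir and below in 1 in Ujumqin. The number of ordered pairs above ran from 0 to 3 in Ujumqin and from 0 to 6 in Hulunbuir over these draws. Inside matrix mesenchyme, no association of TBX4 with TBX5 or GATA4 was thus detected at this depth.

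**Figure D4:**
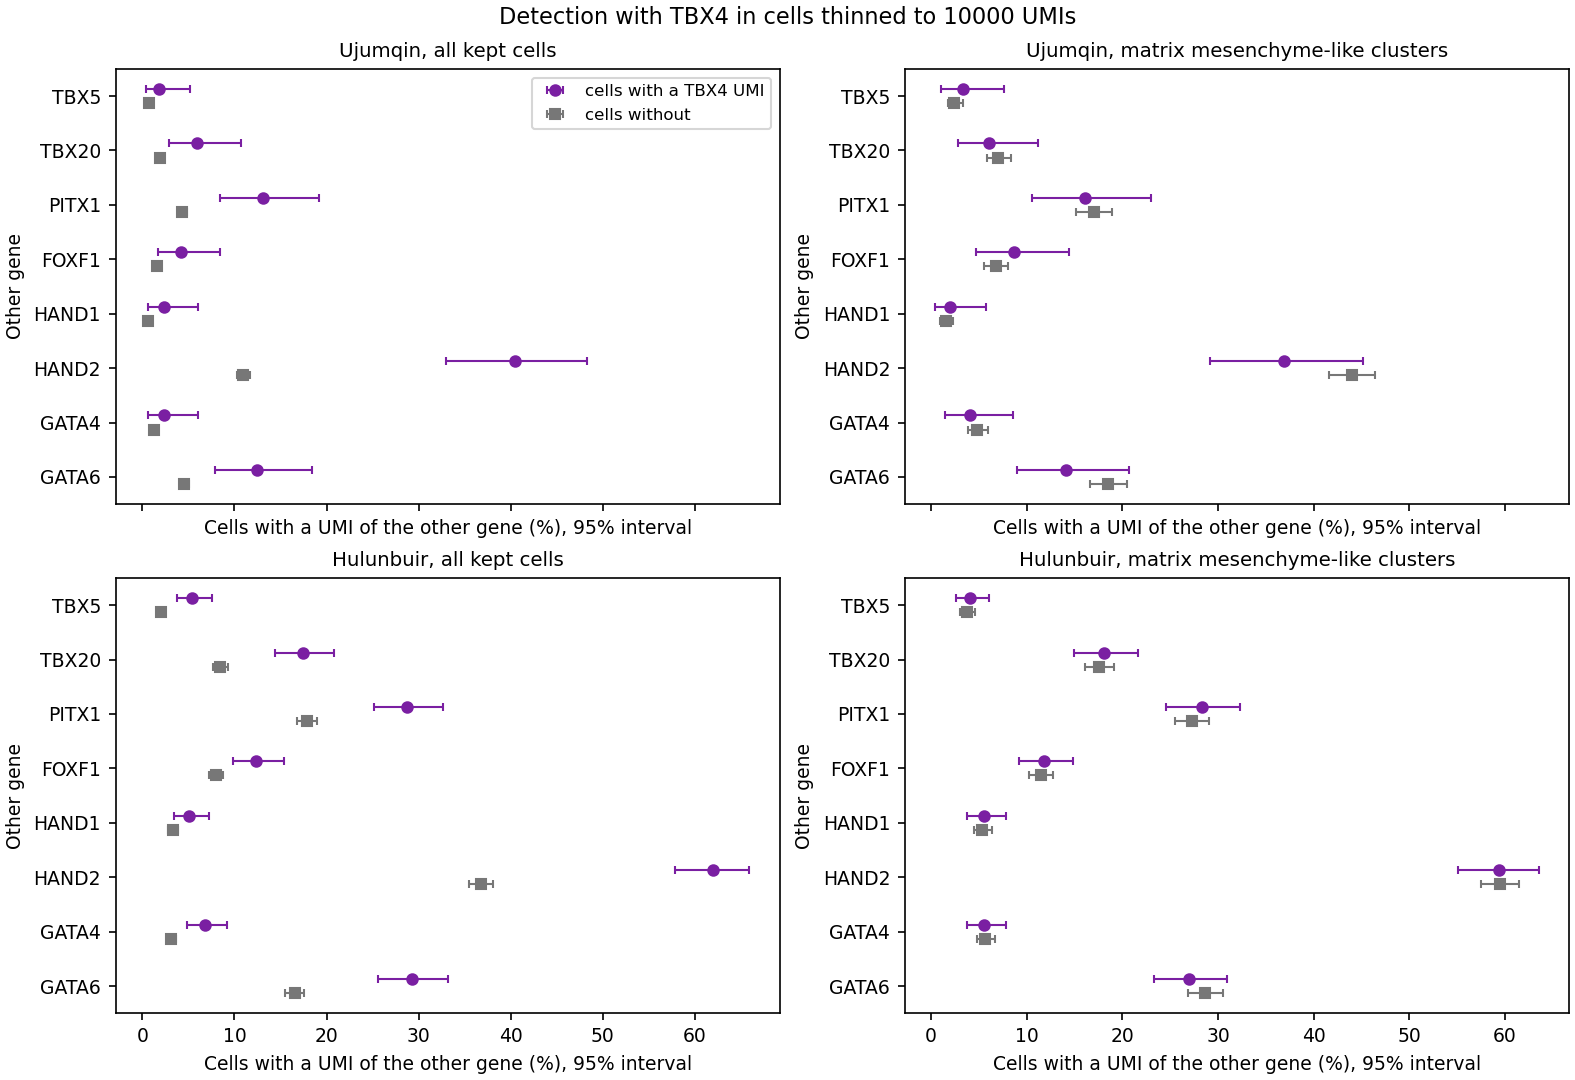
Share of cells with a UMI of each other gene (%, with 95% Clopper-Pearson intervals) among cells with a TBX4 UMI (purple circles) and without (grey squares), in cells thinned to 10000 UMIs, for all kept cells (left) and matrix mesenchyme-like clusters (right) of Ujumqin (top) and Hulunbuir (bottom). The gap for HAND2 in all kept cells (40.5% against 10.96% in Ujumqin) is absent within matrix mesenchyme, where the shares were 36.9% and 44.0%.

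Cells were next sorted by what was detected at full depth, outside erythroid-like clusters. TBX4 cells (a UMI of TBX4, none of TBX5) numbered 463 in Ujumqin and 1117 in Hulunbuir, TBX5 cells (the converse) 107 and 188, and GATA4 cells (none of TBX4 or TBX5) 213 and 256. Cells with both TBX4 and TBX5 numbered 38 and 92, of which 38 and 89 were matrix mesenchyme-like. Of the TBX4 cells, 92.4% in Ujumqin and 88.2% in Hulunbuir were matrix mesenchyme-like, and of the TBX5 cells 92.5% and 89.4% were. Of the Hulunbuir cells in the caudal progenitor-like clusters, 86 were TBX4 cells, 1 was a TBX5 cell and 3 were GATA4 cells. Of the cells with both genes, 31.5% in Hulunbuir and 15.8% in Ujumqin were in the top 10% of doublet scores, against 20.3% and 16.4% of TBX4 cells, and the part of doublets in them was not tested.

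The 6 genes not used for sorting differed little between these cells. For TBX4 over TBX5 cells, the log2 ratio of HAND2 was 0.34 in Ujumqin (0.14 to 0.54) and 0.07 in Hulunbuir (-0.08 to 0.23). The intervals of TBX20, PITX1, FOXF1, HAND1 and GATA6 included 0 in both libraries. For GATA4 over TBX4 cells in Ujumqin, TBX20 (0.43, 0.01 to 0.84) and FOXF1 (0.50, 0.06 to 0.94) were higher, and in Hulunbuir their intervals included 0. HAND2 differed by -0.15 (-0.29 to -0.01) for GATA4 over TBX4 cells in Hulunbuir. For GATA4 over TBX5 cells, the interval left out 0 for HAND2 in Ujumqin (0.34) and for none of these 6 genes in Hulunbuir. None of these ratios reached 2-fold except that of HAND1 for TBX4 over TBX5 cells in Ujumqin (1.36, -0.30 to 3.70), whose interval included 0.

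Over all genes, few features separated TBX4 from TBX5 cells of the same library. At these levels a cell with 0 UMIs of a gene may still express it, and most cells of both sets were of the same class, so a small difference does not show that the cells were alike. Of 6746 features with at least 50 UMIs in both sets together, 78 (1.16%) were at least 2-fold higher and 52 (0.771%) at least 2-fold lower in the TBX4 cells of Ujumqin. In Hulunbuir, of 7541 features, 129 (1.71%) were higher and 31 (0.411%) lower. Of 6593 features tested in both libraries, 2 were higher in both (2.90% of the 69 higher in Ujumqin and 4.88% of the 41 higher in Hulunbuir) and 2 were lower in both (5.71% of 35 and 13.3% of 15), while 5 (0.0758%) passed 2-fold in opposite directions. Agreement between the libraries was thus no more frequent than the opposite.

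SERPINF1, which encodes a secreted inhibitor of vessel growth, was higher in TBX4 cells in both libraries. In Ujumqin it stood at 7.95 CPM in TBX4 cells and 1.02 in TBX5 cells (log2 ratio 2.96, 1.57 to 4.85), and in Hulunbuir at 11.4 and 4.79 (log2 ratio 1.24, 0.57 to 2.00). Within matrix mesenchyme the ratios were 3.06 and 1.54. The Ujumqin ratio rested on 4 UMIs of SERPINF1 in TBX5 cells, 3 of them in matrix mesenchyme, and the gene was picked by the size of its ratio. CRABP1, a binding protein for retinoic acid, had log2 ratios of 2.83 and 1.63, but 215 of its 274 UMIs in the TBX4 cells of Ujumqin lay in 1 cell. Without the top cell its ratios were 0.63 (-0.45 to 1.90) in Ujumqin and 1.54 (1.23 to 1.87) in Hulunbuir, and within matrix mesenchyme 2.97 (1.91 to 4.30) and 0.63 (0.29 to 0.99). The matrix value of CRABP1 in Ujumqin still holds the cell with 215 UMIs, so it is no separate check. SERPINF1 had 2.79 and 1.21 without its top cell.

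The 10 genes ranked highest by the smaller of both libraries' ratios further held TMEM132C, TRAPPC11, TPD52L1, TENM4, CUL4B, C1QTNF2, SNX13 and NCAM1, for which the smaller log2 ratio lay between 0.80 and 0.95. TENM4, a cell surface protein of axon guidance, stood at 0.91 in Ujumqin (0.04 to 1.90) and 0.89 in Hulunbuir (0.10 to 1.79), and in Ujumqin its interval included 0 within matrix mesenchyme and without its top cell. NCAM1, a cell adhesion molecule, stood at 1.28 in Hulunbuir (0.47 to 2.22) and 0.80 in Ujumqin (-0.43 to 2.31). None of these 8 genes passed 2-fold in both libraries. Only for TENM4 did the intervals leave out 0 in both libraries, and those of TRAPPC11 and C1QTNF2 included 0 in both.

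Sarcomere genes of the heart were lower in TBX4 than in TBX5 cells, through few cells. MYL3 had a log2 ratio of -2.60 in both libraries and MYL4 of -1.10 in Ujumqin and -1.95 in Hulunbuir. In Ujumqin, 1 TBX5 cell each held 28 of the 38 MYL3 UMIs and 131 of the 331 MYL4 UMIs of the TBX5 cells, and without their top cell the ratios were -0.68 (-1.75 to 0.52) and -0.37. In Hulunbuir, without their top cell, they were -1.05 and -1.18. Within matrix mesenchyme the ratio of MYL3 was -0.22 in Ujumqin and 1.27 in Hulunbuir, each with an interval that included 0, and MYL4 stood at -0.41 (-0.65 to -0.17) and -0.16 (-0.55 to 0.24). The link of TBX5 with these genes thus rested largely on few cells outside matrix mesenchyme.

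The genes lowest in TBX4 cells further held PECAM1, CD93, KDR and PLVAP, which mark endothelium, and KIF3B, COTL1, CCDC102A and TNNC1. PECAM1 had a log2 ratio of -1.90 in Ujumqin and -0.95 in Hulunbuir, and in Ujumqin 2 cells held its 62 UMIs in TBX5 cells, with a ratio of -0.43 (-1.12 to 0.33) without the top cell. KDR (-0.96 and -0.76) stood at 0.17 and 0.27 within matrix mesenchyme, with intervals that included 0. PLVAP (-1.21 and -0.75) stood at -0.66 and 0.00 there. TNNC1 had a ratio of -4.76 in Ujumqin, where 1 cell held all 62 of its UMIs in TBX5 cells, and of -0.75 in Hulunbuir, which became 0.56 (-0.02 to 1.19) without its top cell. KIF3B, a motor of the cilium, had a like ratio within matrix mesenchyme, at -0.99 (-1.93 to 0.02) and -0.91 (-1.64 to -0.13) against -1.04 and -0.90 over all. Without its top cell it stood at -0.73 (-1.71 to 0.35) in Ujumqin and -0.79 (-1.47 to -0.07) in Hulunbuir.

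**Figure D5:**
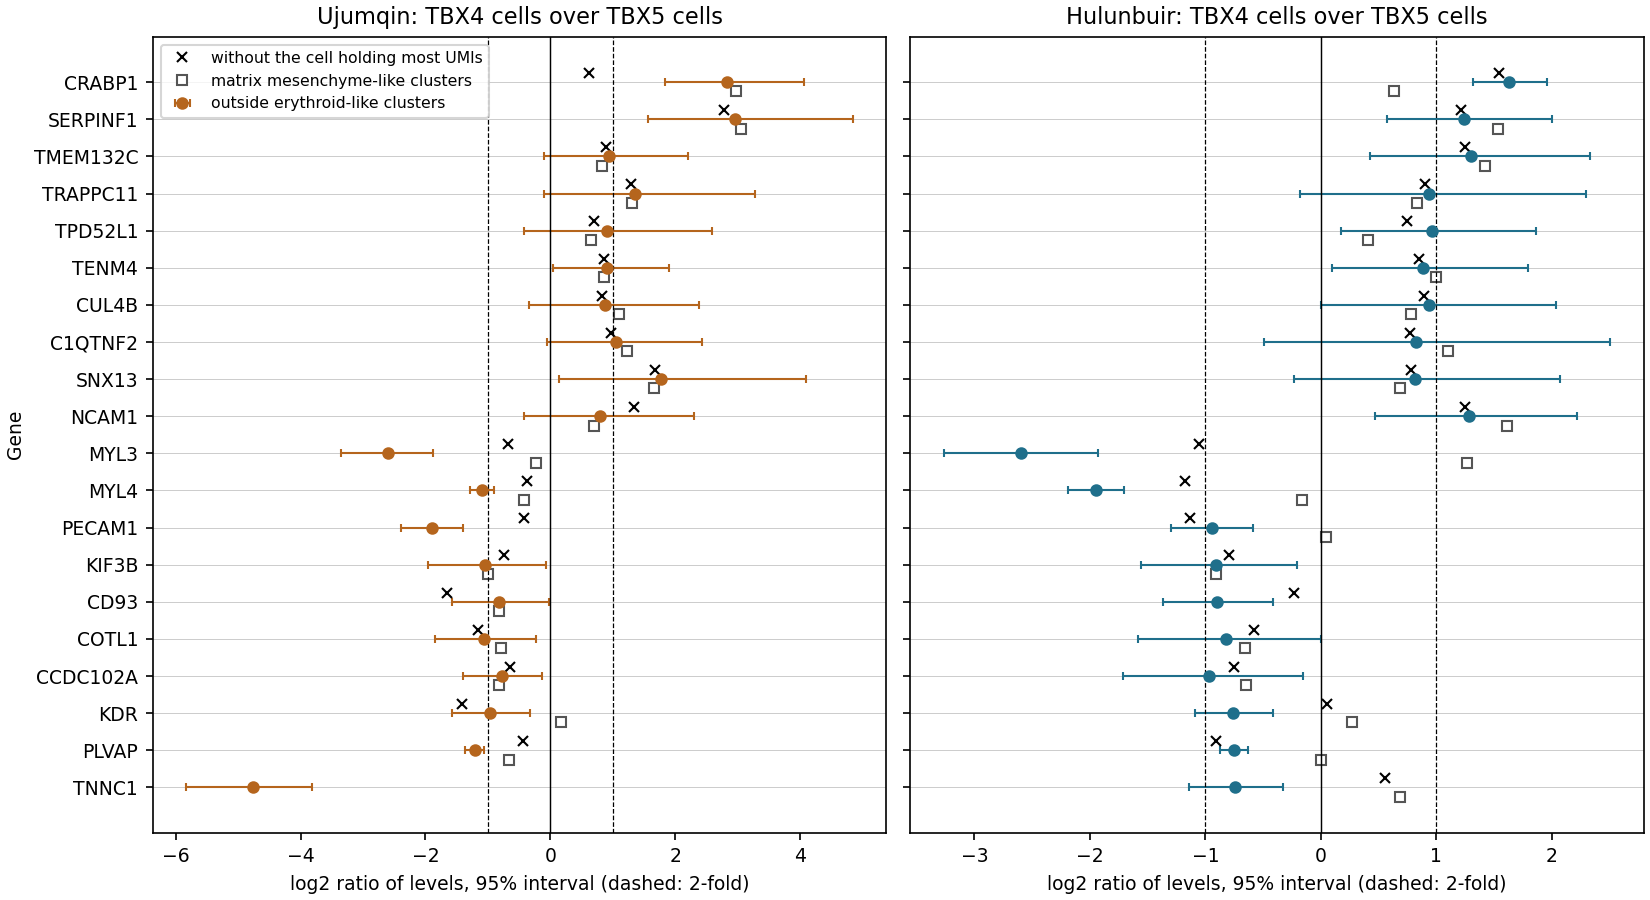
Log2 ratio of levels in TBX4 over TBX5 cells for the 10 genes ranked highest and the 10 ranked lowest, in Ujumqin (left) and Hulunbuir (right), with dashed lines at 2-fold. Filled circles with 95% intervals are cells outside erythroid-like clusters, open squares are matrix mesenchyme-like cells, and crosses leave out the cell with most UMIs of the gene, where a value could be had: SERPINF1 keeps its place (2.96, on 4 UMIs in TBX5 cells, and 1.24), while CRABP1 falls to 0.63 in Ujumqin without 1 cell.

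The gene lists gave a similar picture of TBX4 against TBX5 cells. Of the cardiac sarcomere list, 5 of 5 tested genes were at least 2-fold lower in the TBX4 cells of Ujumqin (median log2 ratio -2.84) and 3 of 5 in those of Hulunbuir (median -1.67), against medians of -0.02 and 0.00 over all features. In Ujumqin, 1 TBX5 cell each held 157 of the 169 ACTC1 UMIs and 84 of the 87 MYL7 UMIs of the TBX5 cells, and without its top cell ACTC1 turned to 0.97 (0.11 to 1.96). Within matrix mesenchyme, 0 of 2 tested sarcomere genes in Ujumqin and 0 of 3 in Hulunbuir were lower, and 1 was higher in each.

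Hind-end HOX genes did not separate the cells in Ujumqin: of the posterior HOX list (paralogs 9 to 13), 0 of 5 tested genes passed 2-fold there, and 1 of 9 did in Hulunbuir, HOXB9 (log2 ratio 1.09, 0.21 to 2.13, and 0.55 within matrix mesenchyme). HOXA11 stood at 24.8 CPM in TBX4 and 21.8 in TBX5 cells of Ujumqin, and at 74.6 and 61.3 in those of Hulunbuir (log2 ratio 0.28, 0.09 to 0.48). HOXA13 stood at 6.19 and 5.12 in Ujumqin, and at 19.8 and 23.2 in Hulunbuir. Of the anterior HOX list (paralogs 1 to 5), 0 genes had enough UMIs in Ujumqin and 1 of 4 passed in Hulunbuir, HOXA5 (log2 ratio 1.42), which stood at 0.64 within matrix mesenchyme. HOXA11 and HOXA13 were thus detected in TBX4 and TBX5 cells alike.

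Of the limb and somatic mesenchyme list, 0 of 6 tested genes passed 2-fold in Ujumqin and 1 of 8 in Hulunbuir, SALL4 (log2 ratio 1.14, and 0.75 within matrix mesenchyme). Of the heart field partners, 1 of 7 was lower in Ujumqin, MEF2C (log2 ratio -1.07, and -0.81 without its top cell), and 0 of 8 passed in Hulunbuir, where WNT2 stood at 31.2 in TBX4 and 31.8 in TBX5 cells. Of BMP signalling, which TBX4 and HAND genes act with in the lateral plate, 0 of 12 passed in each library, with ID1 at a log2 ratio of -0.12 in Ujumqin and 0.38 in Hulunbuir. Of the hedgehog targets, 0 of 3 passed in Ujumqin and 1 of 3 in Hulunbuir, where HHIP was lower (log2 ratio -1.31, and -1.38 within matrix mesenchyme). HOXB9, SALL4, MEF2C and POSTN lie outside the rule for named genes and were chosen after their values were seen.

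Of the fibrillar matrix list, 0 of 10 genes passed in Ujumqin and 1 of 10 in Hulunbuir, POSTN, which was lower in TBX4 cells (log2 ratio -3.72). In Hulunbuir 72 of the 165 POSTN UMIs of TBX5 cells lay in 1 cell, and the ratio was -2.90 without it and -1.71 (-2.37 to -1.03) within matrix mesenchyme. In Ujumqin it was 0.05 within matrix mesenchyme, so the genes of the matrix did not set TBX5 cells apart in both breeds. Of the retinoic acid list, CRABP1 passed in each library (1 of 3 and 1 of 6). Of the GATA cofactors, 0 of 5 passed in each library, and ZFPM2, a partner of GATA4, stood at a log2 ratio of -0.10 and -0.20.

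The lists of other cell types moved in few genes. Of the endoderm list, 1 of 4 was lower in Ujumqin, TTR, where 617 of the 661 UMIs of TBX5 cells and 909 of the 1100 UMIs of TBX4 cells lay in 1 cell each (log2 ratio -1.53, -4.05 without the top cell and -0.24 within matrix mesenchyme), and 1 of 2 was higher in Hulunbuir, EPCAM (log2 ratio 1.96). Of the endothelium list, 1 of 4 was lower in Ujumqin, PECAM1, and 0 of 4 passed in Hulunbuir. Of the erythroid list, 1 of 5 was higher in Ujumqin, KLF1 (5.28 CPM in TBX4 cells and 2.31 in TBX5 cells), and 0 had enough UMIs in Hulunbuir. The part of free RNA and of doublets in these genes was not tested.

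Some genes followed the pattern of TBX4, TBX5 or GATA4 across the clusters of both libraries. Likeness was the mean over the libraries of Pearson r across 23 and 18 clusters, among 2022 genes with at least 50 CPM in some cluster of each. The genes most like TBX4 were LUM (0.861), MYRF (0.848), COL1A1 (0.847), REXO2 (0.843) and FKBP10 (0.841), of which LUM and COL1A1 encode fibrillar matrix proteins. The genes most like GATA4 were REG4 (0.910), REXO2 (0.869), GFER (0.843), P4HA1 (0.838) and COL12A1 (0.835). The genes most like TBX5 were NEXN (0.815), NEBL (0.802), CNN1 (0.751), MCUB (0.716) and FH (0.712), of which NEXN, NEBL and CNN1 encode proteins bound to actin in muscle. NEXN was highest in the cardiomyocyte-like cluster of each library, at 253 CPM in Ujumqin and 215 in Hulunbuir. In Ujumqin the TBX5 level of that cluster was 1 UMI. Without the cluster, r in Ujumqin fell from 0.855 to 0.698 for NEXN and from 0.801 to 0.502 for CNN1. With the cardiomyocyte-like clusters left out, NEXN had 0.731, NEBL 0.765, CNN1 0.578, MCUB 0.70 and FH 0.744, so CNN1 and NEXN fell most and FH rose, while LUM had 0.883 with TBX4 and REG4 0.925 with GATA4.

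Some neighbours of the T-box genes are T-box genes themselves. By the RefSeq gene order of the assembly ARS-UI_Ramb_v3.0, which is not that of the files, TBX3 lies beside TBX5 and TBX2 lies near TBX4. In matrix mesenchyme TBX3 stood at 6.88 CPM in Ujumqin and 11.04 in Hulunbuir, and TBX2 at 0.850 and 0.885. In the caudal progenitor-like cells TBX3 stood at 12.2, where TBX5 had 1 UMI, and TBX2 had 1 UMI, where TBX4 had 101. In these cells TBX3 therefore did not follow TBX5, while TBX2 and TBX4 were both lower than in the matrix mesenchyme of Hulunbuir. Between the libraries, TBX3 and TBX5 were both higher in Hulunbuir matrix mesenchyme.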

How the data were processed

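The authors deposited counts of UMIs for each gene and barcode, made with Cell Ranger on the Rambouillet sheep assembly and not normalized. For clustering, cells were scaled and log-transformed, 2000 variable genes without the 9 genes gave 30 principal components, and leidenalg 0.10.2 (resolution 1) split a graph of 20 shared neighbours. Clusters were named from 21 marker lists, and 13 gene lists were compared between cells. The work used matplotlib 3.10.9, igraph 0.11.9, scikit-learn 1.9.0, pandas 2.3.3, scipy 1.17.1 and numpy 2.4.6 in Python 3.11.15. The 9 genes and the lists were chosen with earlier results of these data known. Named genes were the 9, the 5 most like each of TBX4, TBX5 and GATA4 (10 counts per 1000000 UMIs added before the log), the 10 of largest ratio in each direction between TBX4 and TBX5 cells, ranked by the smaller of both libraries' ratios, and up to 4 of each list by UMIs. A doublet score was the share of simulated doublets among 50 neighbours. No test was run, as 1 library stands for each breed. The clustering, the intervals, the log2 ratios, the thinning, the co-detection and the 2-fold calls were tested on simulated data. Of the 4 genes that differed in opposite directions between the libraries with intervals that left out 0 in both, 1 is not reported here.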

Additional observations from a re-analysis of the deposited data

Results flagged for a closer look

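Of 6593 features tested in both libraries, 5 (0.0758%) differed between TBX4 and TBX5 cells by at least 2-fold in opposite directions in Ujumqin and Hulunbuir. The intervals left out 0 in both libraries for 4 of these, of which 3 are given here, and the difference between the libraries was not tested for any of them. FAM49A had a log2 ratio of 1.85 in Ujumqin and -1.21 in Hulunbuir, and within matrix mesenchyme 1.66 and -0.68 (-1.67 to 0.43). HADH, an enzyme of fatty acid oxidation, had a log2 ratio of -1.43 in Ujumqin and 2.05 in Hulunbuir, and within matrix mesenchyme these were -1.52 and 2.28. ENOSF1 had a log2 ratio of -1.08 in Ujumqin and 1.06 in Hulunbuir, and within matrix mesenchyme -1.19 and 0.76 (-0.28 to 2.02).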

How the results depend on the processing

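Of 210 comparisons of a value with an alternative, 133 kept within their interval or within 1.5 times their count, 77 moved and 0 values whose interval left out 0 changed sign. The fold of GATA4, whose interval included 0, did turn negative without the highest doublet scores. The number of the genes described here that were highest in a matrix mesenchyme-like cluster kept within 1.5 times its count in 10 of 10. This number does not follow TBX4 or TBX5 singly, so whether the cluster type of their own peaks kept its place was not tested. Of the folds of TBX4, TBX5 and GATA4, 20 of 30 kept within their interval and 10 moved. Of the folds of the 6 other genes, 41 of 60 kept within their interval and 19 moved. Of the co-detection shares of TBX4 with TBX5, GATA4, PITX1 and HAND2, 42 of 64 kept and 22 moved. For PITX1 and HAND2 alone, 17 of 32 kept and 15 moved. The main intervals of these shares were wide, such as 0 to 12.3% for TBX5 in Ujumqin, so keeping within them shows little. Of the genes most like TBX4, TBX5 and GATA4, 1 of 6 comparisons kept and 5 moved.

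For the mean of the cells' values the log2 folds of TBX4, TBX5 and GATA4 were 1.42, 1.40 and 0.71, and 8 of the 9 genes were at least 2-fold higher. For all kept cells they were 2.02, 1.61 and 1.12, and 9 genes were. With the highest doublet scores removed, TBX4 stood at 0.91, GATA4 at -0.034 (its interval included 0 before as well) and 2 genes were at least 2-fold higher. Within matrix mesenchyme, an alternative chosen after seeing the data, TBX4 stood at 1.23 and GATA4 at 0.49. The cause of these moves was not tested.

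Shares of TBX4 cells with another gene rose with depth. They also moved with the random draw: at 10000 UMIs, TBX5 in TBX4 cells of Hulunbuir ran from 2.93% to 5.12% over 20 further draws. Without thinning, GATA4 was in 15.3% of them in Ujumqin and 11.7% in Hulunbuir, and TBX5 in 7.61% in Hulunbuir. At 10000 UMIs, chosen after seeing the data, these were 5.41% for TBX5 and 6.81% for GATA4 in Hulunbuir. GATA4 was in 0% there at 500 UMIs and with the highest doublet scores removed, where the main value rested on 1 cell.

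The features higher in TBX4 than in TBX5 cells numbered 256 in Ujumqin and 410 in Hulunbuir with at least 2 UMIs of the gene, which left 8 and 9 TBX5 cells. They numbered 260 and 328 with at least 20 UMIs in both sets, and 11 and 15 at 4-fold. The lower ones numbered 176 and 144 with at least 20 UMIs, 8 and 4 at 4-fold, 136 in Hulunbuir with at least 2 UMIs, 34 in Ujumqin without the highest doublet scores and 9 in Hulunbuir within matrix mesenchyme. Of the listed genes, 10 passed in each library, against 5 and 2 at 4-fold, 4 and 4 within matrix mesenchyme and 16 in Hulunbuir with at least 20 UMIs. Fewer UMIs or a higher fold change these counts by construction.

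No paired analysis was possible because each breed has 1 library and the shared replicate number of the labels pairs no animals. The depth limits what can be said of TBX5 and GATA4: no cluster reached 10 CPM of either, and shallower cells dropped out of the thinned shares, 3345 in Ujumqin and 516 in Hulunbuir at 1000 UMIs, 7339 and 3976 at 10000.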
